A study of Homo sapiens with 6 samples.

Results

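The zinc finger genes of human chromosome 19 with a ZNF symbol were followed in a line labelled HepG2 after a short exposure to saikosaponin A. They were taken by name and place alone: a symbol of ZNF, a number and at most 1 further capital letter, on chromosome 19. That rule gave 217 of the 29435 rows of the expression table, and 47.2% of the 460 rows that carry such a symbol on any chromosome. Of the 217 members, 87 were expressed, meaning that FPKM, the reads scaled by transcript length and library size, reached 1 in 3 or more libraries out of 6. These 87 were tested, and the other 130 were not.

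HepG2 is a human liver cancer line. One group of 3 libraries came from cells given saikosaponin A (SsA, a plant saponin) at 20 µM for 4 h, and the other group of 3 came from cells given the solvent DMSO for the same 4 h. No genotype or transgene is named for either group, and the labels do not say whether replicates were separate cultures, and every p-value here reflects only how far these 6 libraries differ. Poly(A)-selected RNA was sequenced to 57768359 to 74912492 counts per library. Hepatocyte markers were nearly absent. All 8 of the 13 fixed markers that had a row, HNF4A, APOA1 and FGB among them, had a mean below 0.1 FPKM. The liver identity in the label is therefore not borne out by these transcripts. Of 3 epithelial markers with a row, the keratin genes KRT8 and KRT18 ranged from 206 to 481 FPKM, and EPCAM had a mean of 0.036 FPKM. Of 5 fibroblast markers with a row, 3 had a mean of at least 1 FPKM, the highest being COL3A1 at 27.9 FPKM. Mitochondrial transcripts took 14.9% of counts in DMSO replicate 3 and 18.8% in SsA replicate 1, against 6.19% to 8.28% in the other 4 libraries.

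Most human ZNF proteins bind DNA through tandem C2H2 fingers, in each of which a pair of cysteines and a pair of histidines hold a zinc ion. Many also carry a KRAB box, which binds the scaffold protein TRIM28. TRIM28 in turn brings the histone methyltransferase SETDB1, HP1 proteins and the NuRD complex to the bound DNA, and many KRAB proteins are known as repressors of transposable elements. Chromosome 19 holds large clusters of KRAB genes that arose by repeated local duplication.

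Duplication can be read in the coding sequence of 3 neighbours, chosen here after their values were seen because 2 of them were among the 8 largest falls. Each line is 1 finger with its linker, 84 bases of a GENCODE 29 coding sequence written 5′ to 3′, and the capitals mark the codons of the 2 cysteines and 2 histidines.
ZNF587: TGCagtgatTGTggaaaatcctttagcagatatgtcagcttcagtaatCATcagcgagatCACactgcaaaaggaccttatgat
ZNF417: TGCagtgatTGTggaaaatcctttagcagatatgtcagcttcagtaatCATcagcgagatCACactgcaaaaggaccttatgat
ZNF587B: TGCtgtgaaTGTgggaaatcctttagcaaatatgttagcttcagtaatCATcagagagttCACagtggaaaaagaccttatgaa
The ZNF587 finger is its finger 2, and for each neighbour the finger with the fewest mismatches to it was printed. The ZNF417 finger had 0 mismatches to that of ZNF587 and the ZNF587B finger had 11. These low counts are partly set by that choice. Of the 31-nt stretches in the ZNF587 coding sequence, 77.2% also occurred in ZNF417 and 0.059% in ZNF587B. Reads from such a shared stretch can belong to either gene, so counts of ZNF587 and ZNF417 may be split between them in a way that the table does not show.

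Promoter sequence was looked at for the members too. RefSeq (GRCh38.p14) held the 250 bases before the start of 79 of the 87 tested members. Many windows met another annotated row on the same strand and were passed over. The 3 printed here are clear of such rows and belong to 1 member that rose, ZNF428, and to the 2 members with the lowest fold changes among the clear windows of members that fell, ZNF675 (log2 −1.52) and ZNF526 (log2 −0.99); the choice was made after the values were seen. Capitals mark the GC box GGGCGG, the CCAAT box CCAAT and the TATA box TATAAA, searched on both strands, and matches may overlap one another.
ZNF675, chr19:23687213-23687462, minus strand: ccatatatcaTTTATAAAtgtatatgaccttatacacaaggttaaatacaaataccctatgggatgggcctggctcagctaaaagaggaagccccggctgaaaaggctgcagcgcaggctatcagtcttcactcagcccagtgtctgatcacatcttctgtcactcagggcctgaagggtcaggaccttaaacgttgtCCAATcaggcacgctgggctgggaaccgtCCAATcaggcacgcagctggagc
ZNF526, chr19:42220062-42220311, plus strand: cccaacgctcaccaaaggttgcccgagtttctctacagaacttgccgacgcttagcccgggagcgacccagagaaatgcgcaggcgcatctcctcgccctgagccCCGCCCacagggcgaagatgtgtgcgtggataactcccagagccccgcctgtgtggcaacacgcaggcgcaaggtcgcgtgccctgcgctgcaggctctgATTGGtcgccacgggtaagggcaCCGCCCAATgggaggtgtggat
ZNF428, chr19:43619630-43619879, minus strand: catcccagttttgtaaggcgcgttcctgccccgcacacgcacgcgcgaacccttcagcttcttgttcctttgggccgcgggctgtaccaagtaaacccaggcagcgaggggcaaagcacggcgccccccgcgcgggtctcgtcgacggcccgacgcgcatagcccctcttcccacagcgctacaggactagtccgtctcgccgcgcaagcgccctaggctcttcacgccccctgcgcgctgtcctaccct
The ZNF675 window held 6 CpG dinucleotides, that of ZNF526 held 21 and that of ZNF428 held 30. The GC box occurred in 60.8% of the 79 member windows, the CCAAT box in 46.8% and the TATA box in 3.80%. Over all 27305 RefSeq windows the shares were 42.3%, 33.0% and 11.1%, and over the windows of 124 of the 151 tested ZNF genes on other chromosomes they were 61.3%, 40.3% and 3.23%. These are letter matches in 1 window per gene, and no binding was measured.

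After SsA the expressed chromosome 19 ZNF genes were mostly lower. Of the 87 tested, 43 fell (49.4%), 3 rose (3.45%) and 41 did not pass, by edgeR's quasi-likelihood test with Benjamini-Hochberg adjustment over all 11427 tested genes at 0.05. Across all tested genes edgeR called 27.9% lower and 25.9% higher, 53.8% in all, so the share of members called lower was above the background and the share called higher was below it. By limma on log2(FPKM + 1), where the median of all tested genes was −0.11, 50 members were lower and 1 higher, with 32.4% of all tested genes lower and 8.08% higher. The median log2 fold change of the members was −0.46 (quartiles −0.81 and −0.18), against 0.03 for all tested genes. In all, 73 of the 87 values were below 0. The falls were moderate: 9 were under 1.5-fold, 22 lay between 1.5-fold and 2-fold, and 12 were 2-fold or more, the last a size reached by 5.42% of all tested genes in that direction.

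Every one of the 43 falls and 3 rises had groups that did not overlap in counts scaled by library size. Counted without the p-value, SsA values lay wholly below the DMSO values for 55 members (63.2%, background 32.4%) and wholly above for 4 (4.60%, background 30.4%). Added together, the 87 members came to 1371, 1325 and 1388 CPM (counts scaled by library size) in DMSO replicates 1, 2 and 3, and to 1011, 995 and 998 CPM in SsA replicates 1, 2 and 3. The summed level was 1361 ± 32.9 CPM with DMSO and 1002 ± 8.42 CPM with SsA (SD, n = 3 each), with a gap between the groups far wider than the spread inside either. Of the 87 members, 17 passed the expression filter through DMSO libraries alone and 0 through SsA libraries alone. The filter itself thus favoured a lower sum with SsA, and no sum without those 17 was taken. In such bulk libraries, less RNA per cell and fewer cells that express a gene cannot be told apart. Each of the 3 SsA libraries showed the shift, since the median log2 ratio of the members to their DMSO mean was −0.48, −0.44 and −0.48 in SsA replicates 1, 2 and 3.

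**Figure D1:**
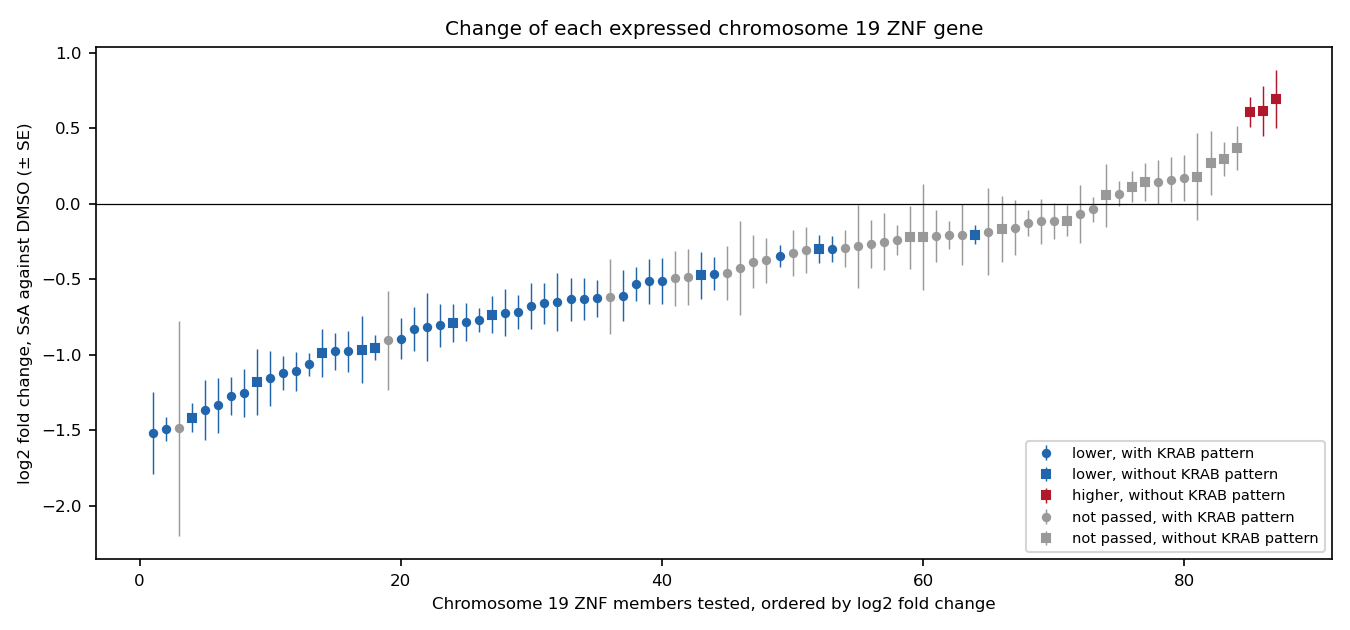
Log2 fold change of SsA against DMSO (y axis, bars are ± SE) for the 87 tested chromosome 19 ZNF genes, ordered from lowest to highest (x axis), with the test's call as colour and the KRAB pattern as point shape. The 43 blue points fell and the 3 red points at the right, all without the KRAB pattern, rose.

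The expression filter touches this count. Of the 87 members, 17 reached it through their DMSO libraries alone, 12 of which fell, and 0 reached it through SsA libraries alone. Among these 17 are 5 of the 8 largest falls described next: ZNF675, ZNF708, ZNF417, ZNF431 and ZNF529 were below 1 FPKM in every SsA library, so the filter itself favoured a fall in them. With an FPKM of at least 1 asked of all 6 libraries, 54 members were left, of which 24 fell and 3 rose. With a mean FPKM of at least 1, a setting chosen after seeing the data, 78 were left, of which 38 fell and 3 rose, at a median of −0.38. The shares of all genes under these filters were not counted, so the counts have no background of their own. The members were expressed at low level: the median of their mean FPKM was 1.81, against 5.63 for all tested genes, and 51 of 87 were below 2 FPKM. At a mean FPKM of at least 5 only 7 were left, of which 2 fell and 2 rose, and their median turned to 0.06. Of all 6197 genes under that filter, 1762 fell and 1666 rose.

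ZNF675 (ENSG00000197372, chr19:23525631-23687212, minus strand) had the lowest fold change of the members that passed. Its product is known as an inhibitor of TRAF6 signalling. It measured 9.10, 9.08 and 13.2 CPM in DMSO replicates 1 to 3 and 4.52, 3.97 and 2.46 CPM in SsA replicates 1 to 3. All SsA values lay well below all DMSO values, and the spread inside each group was wide. The level was 2.87-fold lower (log2 −1.52 ± 0.27 SE, adjusted p = 0.00352, edgeR).

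ZNF587 (ENSG00000198466, chr19:57849859-57865117, plus strand) is a KRAB gene whose product, like that of ZNF417, is known as a repressor of endogenous retroviruses. It was at 42.3, 43.2 and 37.7 CPM in the DMSO libraries and at 14.8, 14.2 and 14.7 CPM in the SsA libraries. The SsA values were close to one another, and the level was 2.81-fold lower (log2 −1.49 ± 0.08 SE, adjusted p = 5.93e-05, edgeR), the smallest adjusted p of any member that fell. ZNF417 (chr19:57900296-57916592, minus strand), which shares the finger printed above, was at 12.1, 12.3 and 11.8 CPM with DMSO and at 4.04, 6.04 and 4.2 CPM with SsA. It fell too (log2 −1.34 ± 0.18 SE, adjusted p = 0.00117, edgeR). The third neighbour, ZNF587B, shares almost no 31-nt stretch with either in its coding sequence. Its levels were 21.7, 21.2 and 16.8 CPM with DMSO and 10.6, 10.8 and 8.99 CPM with SsA, again without overlap (log2 −0.98 ± 0.14 SE, adjusted p = 0.00131, edgeR).

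ZNF714, ZNF431 and ZNF708 are neighbours between positions 21082159 and 21329425. ZNF714 was at 30.9, 27.3 and 31.8 CPM with DMSO and at 10.5, 11.7 and 11.4 CPM with SsA (log2 −1.42 ± 0.09 SE, adjusted p = 0.000106, edgeR). ZNF708 was lower in level, at 5.67, 5.24 and 7.19 CPM with DMSO and 2.11, 2.66 and 2.24 CPM with SsA (log2 −1.37 ± 0.20 SE, adjusted p = 0.00156, edgeR). ZNF431 was at 26.9, 26.0 and 25.5 CPM with DMSO and at 12.7, 9.47 and 10.3 CPM with SsA (log2 −1.27 ± 0.12 SE, adjusted p = 0.000327, edgeR). In all 3 genes every SsA value lay far below every DMSO value.

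ZNF529 and ZNF865 complete the 8 largest falls. The KRAB gene ZNF529 (chr19:36534774-36605262) was at 14.0, 13.4 and 13.6 CPM with DMSO and at 4.68, 6.86 and 5.62 CPM with SsA (log2 −1.25 ± 0.16 SE, adjusted p = 0.000905, edgeR). ZNF865 (chr19:55605405-55617269) had 20 fingers and no KRAB pattern. It stood at 13.1, 13.5 and 20.5 CPM with DMSO and at 8.11, 6.91 and 5.76 CPM with SsA (log2 −1.18 ± 0.22 SE, adjusted p = 0.00407, edgeR). Its highest value in each group came from the library with the larger mitochondrial share. Without those 2 libraries its log2 fold change was −1.10 (adjusted p = 0.000149, edgeR), and the members' counts were 54 lower and 5 higher. Calls grew over all 11427 tested genes too, to 3946 lower and 3801 higher from 3190 and 2956.

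**Figure D2:**
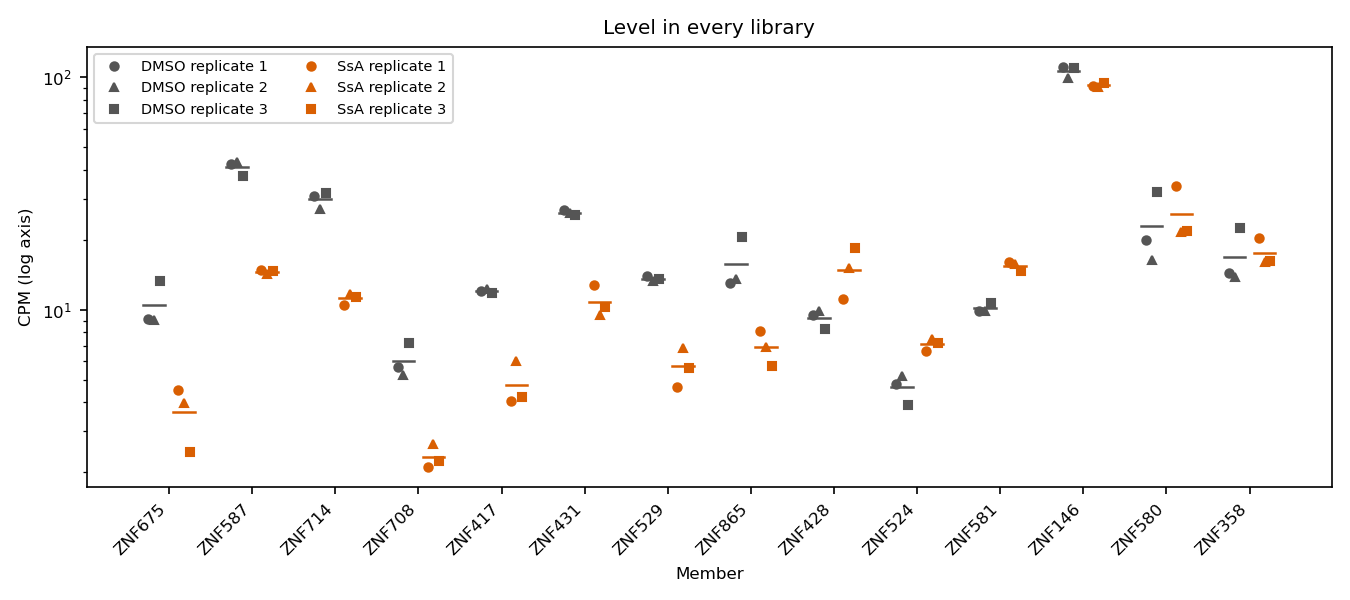
Level in CPM (log axis) of 14 chromosome 19 ZNF genes in each library, with grey symbols for DMSO, orange symbols for SsA, shapes for the replicate number and a bar for the group mean. The 8 genes at the left fell, ZNF428, ZNF524 and ZNF581 rose, and the groups of ZNF580 and ZNF358 overlapped.

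The 4 other falls of at least 2-fold, named after their values were seen, were those of ZNF17, ZNF791, ZNF607 and ZNF331, at log2 −1.16, −1.12, −1.11 and −1.06. All carry the KRAB pattern. ZNF791, for example, was at 26.6, 24.1 and 29.9 CPM with DMSO and at 13.2, 12.6 and 11.2 CPM with SsA (adjusted p = 0.000373, edgeR). The remaining falls ran down to that of ZNF146, given below. Among them was ZNF274, also named after its values were seen, a KRAB gene whose product is known to bring SETDB1 to the ZNF gene clusters of chromosome 19 itself. It was at 37.6, 35.6 and 37.5 CPM with DMSO and at 32.7, 27.1 and 30.4 CPM with SsA, a small fall without overlap (log2 −0.30 ± 0.09 SE, adjusted p = 0.0239, edgeR), and it did not pass with length removed, as described further on (log2 −0.06, adjusted p = 0.599, edgeR).

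The 3 members that rose were short genes with few fingers. ZNF428 (ENSG00000131116, chr19:43607224-43619629, minus strand), with 1 finger found, was at 9.51, 9.87 and 8.28 CPM with DMSO and at 11.2, 15.1 and 18.4 CPM with SsA. The SsA values were spread widely above the DMSO values (1.62-fold higher, log2 0.69 ± 0.19 SE, adjusted p = 0.0196, edgeR). ZNF524 (chr19:55600022-55603138) was at 4.81, 5.21 and 3.89 CPM with DMSO and at 6.65, 7.50 and 7.19 CPM with SsA (log2 0.62 ± 0.16 SE, adjusted p = 0.0178, edgeR). ZNF581 (chr19:55635459-55645622) was at 9.88, 9.87 and 10.7 CPM with DMSO and at 16.1, 15.7 and 14.7 CPM with SsA (log2 0.61 ± 0.10 SE, adjusted p = 0.00238, edgeR). ZNF581 overlaps ZNF580 and CCDC106 on the same strand, so its reads cannot be fully told from theirs, and ZNF428 overlaps SRRM5 on the opposite strand. The calls of ZNF428 and ZNF524 were lost without SsA replicate 2 (adjusted p = 0.0602 and 0.062, edgeR) and without SsA replicate 3 (0.0639 and 0.0559). That of ZNF524 was also lost without DMSO replicate 1 (0.0516). In FPKM the groups of ZNF428 overlapped, with 5.38 in SsA replicate 1 against 5.82 and 6.05 in DMSO replicates 1 and 2. By limma on log2(FPKM + 1), ZNF428 and ZNF524 were not called (adjusted p = 0.145 and 0.0954), whereas ZNF581 was (0.00646).

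The 4 members of highest level were ZNF146, ZNF580, ZNF358 and ZNF581. ZNF146, whose protein consists of little but fingers, had a mean of 20.7 FPKM, well above ZNF580 at 7.89 FPKM. It was at 111, 99.7 and 109 CPM with DMSO and at 91.8, 90.8 and 94.9 CPM with SsA. The groups were close but did not overlap, and this was the smallest fall among the calls (1.15-fold lower, log2 −0.20 ± 0.06 SE, adjusted p = 0.032, edgeR). It was lost on leaving out any of 4 single libraries, at adjusted p from 0.0585 without SsA replicate 1 to 0.106 without SsA replicate 2, with 0.0993 without DMSO replicate 1 and 0.0693 without SsA replicate 3 between them.

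ZNF580 and ZNF358 did not pass, and their groups overlapped. ZNF580 was at 19.9, 16.5 and 32.3 CPM with DMSO and at 34.3, 21.7 and 21.7 CPM with SsA (log2 0.18 ± 0.29 SE, adjusted p = 0.617, edgeR). ZNF358 was at 14.5, 13.8 and 22.4 CPM with DMSO and at 20.5, 16 and 16.2 CPM with SsA (log2 0.06 ± 0.21 SE, adjusted p = 0.837, edgeR). In both genes the 2 highest values were those of DMSO replicate 3 and SsA replicate 1, the libraries of high mitochondrial share.

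ZNF440 had as low a fold change as ZNF587 and did not pass. It was singled out after its values were seen: 8.66, 8.61 and 8.41 CPM with DMSO and 4.49, 0.384 and 4.33 CPM with SsA. SsA replicate 2 alone stood near 0, which made the error large (log2 −1.49 ± 0.71 SE, adjusted p = 0.115, edgeR), although every SsA value was below every DMSO value. In all, 12 members had SsA values wholly below the DMSO values and did not pass, and 1, ZNF576, had values wholly above (log2 0.37, adjusted p = 0.0656, edgeR).

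At the expression threshold, the nearest members inside and outside were these. Just inside it were ZNF527, at 7.97 ± 1.0 CPM with DMSO and 5.69 ± 0.99 CPM with SsA (SD, n = 3 each), and ZNF653, at 3.39 ± 0.49 and 4.08 ± 0.79 CPM. Just outside were ZNF264, at 14.6 ± 0.60 and 7.18 ± 0.66 CPM, and ZNF329, at 5.68 ± 0.65 and 4.13 ± 0.28 CPM. Among the 130 untested members, 53 had a mean below 0.1 FPKM and the median was 0.156 FPKM. SsA values lay wholly below the DMSO values for 47 of the 130 (36.2%) and wholly above for 1 (0.769%). Over all 18008 rows that were not tested the shares were 11.9% and 3.94%. These sets are unlike, since rows with almost no counts can hardly separate. At least 10 counts in total were reached by 203 of the 217 members and by 23239 of all 29435 rows.

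The ZNF genes on other chromosomes, 243 rows of which 151 were tested (62.1%, against 40.1% of the chromosome 19 rows), were also mostly lower. Of the 151, 93 fell (61.6%, background 27.9%), 8 rose (5.30%, background 25.9%) and 50 did not pass, with a median log2 fold change of −0.42. The 2 medians, −0.46 and −0.42, are close beside quartiles of −0.81 and −0.18 for chromosome 19 and −0.76 and −0.21 elsewhere. The difference itself was not tested. Falls of 2-fold or more were seen in 12 of the 87 members and 18 of the 151 other ZNF genes, beside 5.42% of all tested genes. How many of the 151 reached the expression filter through DMSO libraries alone was not counted.

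The largest falls among the other ZNF genes were those of ZNF92 on chromosome 7, ZNF618 on chromosome 9 and ZNF142 on chromosome 2. ZNF92, a KRAB gene, went from 8.18, 7.48 and 8.46 CPM with DMSO to 2.66, 1.89 and 1.80 CPM with SsA (log2 −1.93 ± 0.20 SE, adjusted p = 0.000434, edgeR). ZNF618 fell by 1.86 and ZNF142 by 1.71 on the log2 scale, with adjusted p of 8.57e-05 and 0.000542 (edgeR). ZNF92 and ZNF618 were below 1 FPKM in every SsA library, so the expression filter itself favoured a fall in them. The largest rises were of ZNF593 on chromosome 1 (log2 0.90), ZNF511 on chromosome 10 (0.62) and ZNF205 on chromosome 16 (0.53, adjusted p = 0.0344, edgeR). No fall on chromosome 19 among those that passed was as large as the 3 falls elsewhere, and ZNF593 rose more than any member. With transcript length removed, as described further on, these 3 rises were not called (log2 0.31, 0.28 and 0.27, adjusted p = 0.117, 0.0804 and 0.283, edgeR).

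The other genes of chromosome 19 were counted in the same way. Of 598 tested chromosome 19 genes that are not members, edgeR called 220 higher (36.8%) and 119 lower (19.9%), and their median was 0.18. By limma on log2(FPKM + 1) that order turned, with 103 higher and 146 lower. Their median lay above that of all tested genes, whereas that of the ZNF members lay below it. Chromosome 19 also holds C2H2 genes with other symbols. Of 19 on a chosen list 9 had a row, 5 were tested, and all 5 fell: MZF1, ZFP30, ZBTB45, ZSCAN22 and ZBTB7A, at a median of −0.86. Over all tested genes 27.9% fell. ZFP30 and ZSCAN22 were below 1 FPKM in every SsA library, so the expression filter itself favoured a fall in them. MZF1, for example, was at 26.0 ± 0.63 CPM with DMSO and 14.3 ± 2.14 CPM with SsA (SD, n = 3 each), and ZBTB7A, whose product represses fetal globin, was at 34.9 ± 12.5 and 18.2 ± 6.80 CPM. Left out in turn, single libraries took the count from 5 to as few as 2, the latter without SsA replicate 3; it was 3 without SsA replicate 2.

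**Figure D3:**
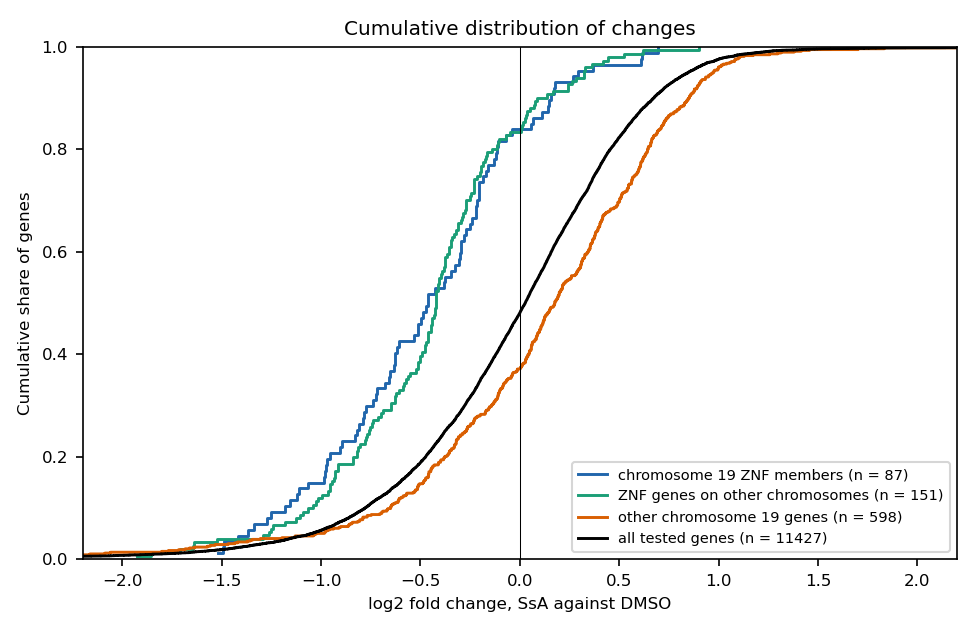
Cumulative share of genes (y axis) by log2 fold change of SsA against DMSO (x axis) for 87 chromosome 19 ZNF genes, 151 ZNF genes on other chromosomes, 598 other chromosome 19 genes and all 11427 tested genes. Both ZNF curves run together to the left of the curve of all genes, and that of the other chromosome 19 genes lies to its right.

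Transcript length moved with these changes. Over 11345 tested genes with a length in GENCODE 29, the rank correlation of log2 fold change with the longest transcript was −0.64, and over the 87 members it was −0.48; genes are not independent replicates, and both are descriptions. The longest transcript of the members had a median of 4005 nt, against 3355 nt for all tested genes and 2602 nt for the other chromosome 19 genes. The fit was repeated with the smooth trend of each library's counts with length removed. There 31 members were lower (35.6%, background 15.3%) and 2 higher (2.30%, background 15.5%), and the median was −0.40. Of the 43 falls 28 were called again, and of the 3 rises 0 were.

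With length removed, ZNF428, ZNF524 and ZNF581 had log2 changes of 0.18, 0.09 and 0.09 (adjusted p = 0.406, 0.697 and 0.625, edgeR); their transcripts were 1260 to 1412 nt long. ZNF146 was lost as well (log2 −0.13, adjusted p = 0.153, edgeR). The 8 largest falls were all called again, with ZNF675 at −1.38 and ZNF587 at −1.02. ZNF431, with the longest transcript of any tested member at 13894 nt, went from −1.27 to −0.44 (adjusted p = 0.0264, edgeR). The 2 members called higher there, ZNF226 (0.55) and ZNF444 (0.44), had passed in neither direction before. The ZNF genes on other chromosomes gave 53 lower, 8 higher and a median of −0.30, and the other chromosome 19 genes 86 lower, 88 higher and a median of 0.01. What set the trend with length was not tested.

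**Figure D4:**
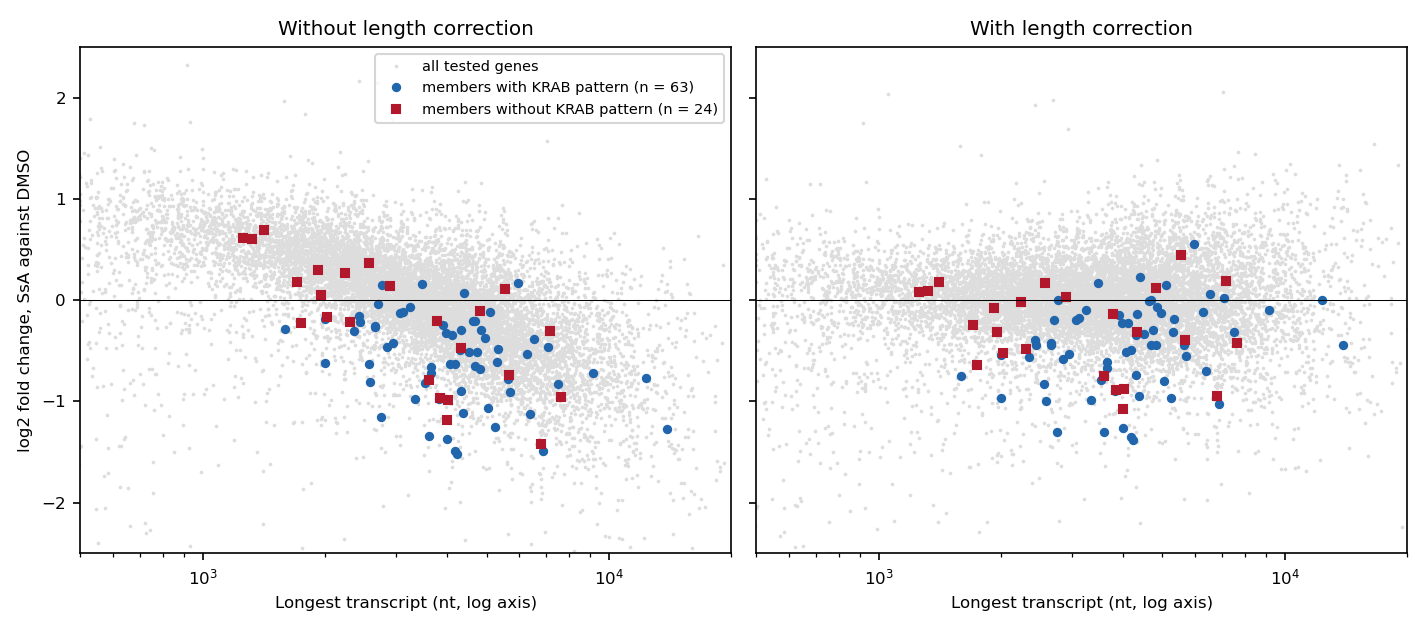
Log2 fold change of SsA against DMSO (y axis) by longest transcript in nt (x axis, log), without the length correction (left) and with it (right), with all tested genes as grey points, 63 members with the KRAB pattern as blue circles and 24 without as red squares. The grey points slope downward at the left and lie level at the right, where most members remain below 0.

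Members with a KRAB box could be compared with those without. A KRAB pattern was found in the translated GENCODE 29 coding sequence of 173 of the 217 member rows (79.7%) and of 95 of the 243 other ZNF rows (39.1%). A gene that the pattern misses can still have the box. Of 63 tested members with it, 33 fell (52.4%) and 0 rose, at a median of −0.51. Of 24 without it, 10 fell (41.7%) and 3 rose (12.5%), at a median of −0.19. The shares over all tested genes were 27.9% lower and 25.9% higher. The summed level of the first went from 917 ± 20.8 CPM with DMSO to 627 ± 1.82 CPM with SsA, and that of the second from 445 ± 34.4 to 375 ± 10.2 CPM (SD, n = 3 each). The limit that the expression filter puts on the sum over all members holds for these sums too. With length removed the medians were −0.44 and −0.28, with 24 of 63 (38.1%) and 7 of 24 (29.2%) lower, beside 15.3% of all tested genes. On the other chromosomes 37 of 55 KRAB genes and 56 of 96 genes without the pattern fell, at medians of −0.49 and −0.38.

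The number of fingers was another difference among members. The median tested member had 12 and the most had 21. Members with 4 fingers or fewer, a limit chosen after the values were seen, were 10 in number: 3 rose, 0 fell, and the median was 0.22. A share of 3 in 10 lies near the 25.9% of all tested genes that were called higher. Of the 77 with more, 0 rose and 43 fell (55.8%, background 27.9%), at a median of −0.51. The few-finger genes also had shorter transcripts, with a median of 1992 nt against 4186 nt, and with length removed their median was 0.03, with 1 higher and 0 lower, against −0.43 with 31 lower and 1 higher. Across the 87 members the rank correlation with log2 fold change was −0.38 for fingers, 0.38 for GC content of the transcript and 0.37 for mean FPKM. With length removed the 3 values were −0.33, 0.13 and 0.29. All are descriptions over genes that share sequence and neighbours.

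Sharing of reads was looked at as well. A same-strand overlap with another row was found for 36 members, of which 19 fell (52.8%), and of the 51 without one 24 fell (47.1%) and 2 rose, beside 27.9% lower over all tested genes. For 15 members over 20% of the 31-nt stretches of the transcript also occurred in another gene, and 8 of them fell (53.3%). Of the 72 at or under that share, a limit chosen after the values were seen, 35 fell (48.6%) and 3 rose at a median of −0.42. Among the 8 largest falls the share was 54.28% for ZNF417, 33.07% for ZNF587, 21.36% for ZNF708 and 21.16% for ZNF714. It was 16.03% for ZNF431, 12.53% for ZNF675, 3.84% for ZNF529 and 0.126% for ZNF865. For ZNF331 it was 3.63%, and the median of the tested members was 6.31%. The part of shared reads in the falls was not tested. The imprinted gene ZNF331, named after its values were seen, was at 38.2 ± 0.89 CPM with DMSO and 18.2 ± 1.24 CPM with SsA (SD, n = 3 each).

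Along the chromosome the 217 rows formed 8 groups when split at gaps of over 2 Mb. The group from 19668796 to 24129968 near the centromere held 34 rows, 30 of them with the KRAB pattern, and only 6 were tested. Of these, 4 fell: ZNF675, ZNF714, ZNF708 and ZNF431, all among the 8 largest falls and all but ZNF714 tested through their DMSO libraries alone, and the other two, ZNF101 and ZNF738, did not pass, at log2 −0.20 and −0.21. The largest group, from 47520685 to 58481230, held 84 rows, of which 37 were tested, 22 fell (59.5%) and 2 rose, at a median of −0.51. Between 7069703 and 12640098 there were 38 rows, 18 tested and 6 lower (33.3%), at a median of −0.29. Between 34677639 and 37817300, 5 of 9 tested members fell (55.6%), and between 39984134 and 45076587, 5 of 14 fell (35.7%) and 1 rose. Beside the 27.9% of all tested genes that fell, the shares of 33.3% and 35.7% lay near the background. ZNF507 was alone in its group and fell (log2 −0.95), neither of 2 tested members at the start of the short arm passed, and ZNF333, alone in its group, was not tested. No position group had more rises than falls.

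**Figure D5:**
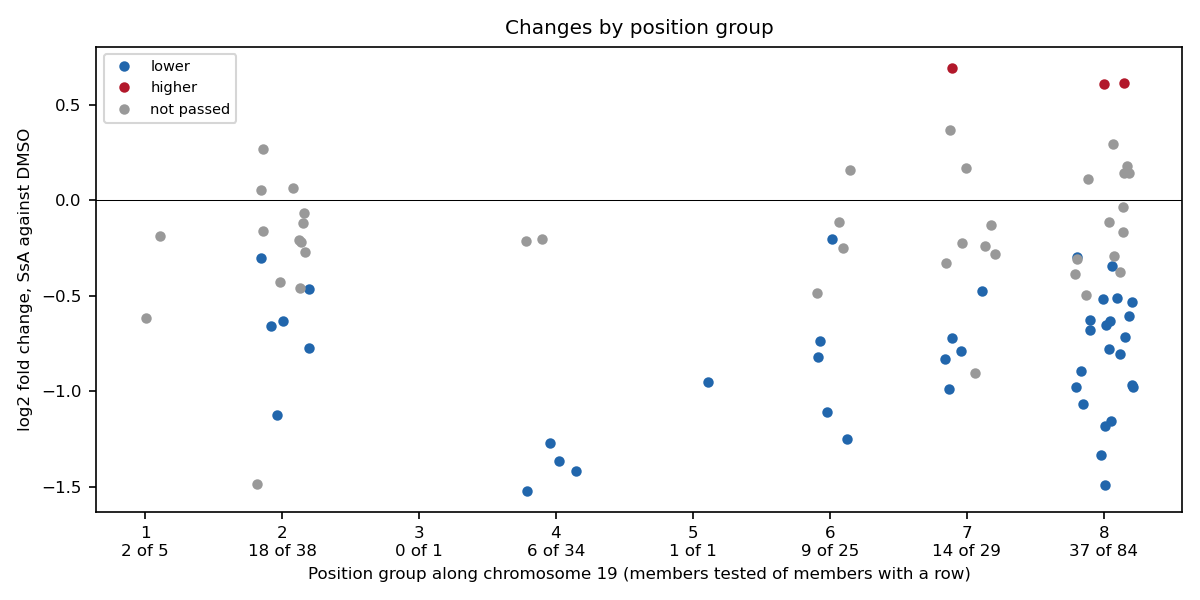
Log2 fold change of SsA against DMSO (y axis) for tested chromosome 19 ZNF genes by position group along the chromosome (x axis, with the number tested of all rows in the group; points are spread sideways for legibility). Group 4 holds 4 of the 8 largest falls, and the 3 rises are in groups 7 and 8.

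Genes for partners of KRAB proteins were read from a list of 26, all of which were tested. Of these 15 fell and 3 rose, at a median of −0.41, beside backgrounds of 27.9% lower and 25.9% higher. TRIM28 itself, the scaffold that KRAB boxes bind, was at 375, 380 and 386 CPM with DMSO and at 433, 428 and 432 CPM with SsA. The rise was small and free of overlap (log2 0.18 ± 0.06 SE, adjusted p = 0.0281, edgeR). SETDB1, which methylates histone H3 at lysine 9, was at 70.3, 69.9 and 74.5 CPM with DMSO and at 56.7, 47.7 and 55.4 CPM with SsA, and fell (log2 −0.43 ± 0.08 SE, adjusted p = 0.00507, edgeR).

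The partners of smallest p were CHD3 and CHD4, remodelling subunits of NuRD, CBX5, which encodes HP1 alpha, and TRIM33, a relative of TRIM28. CHD3 was at 425, 434 and 411 CPM with DMSO and at 204, 215 and 206 CPM with SsA (log2 −1.02 ± 0.06 SE, adjusted p = 7.34e-05, edgeR). TRIM33 fell by 0.91, CBX5 by 0.69 and CHD4 by 0.65 on the log2 scale. The other two rises were of HDAC2, a histone deacetylase (log2 0.24), and CBX1, which encodes HP1 beta (0.38, with overlapping groups). With length removed 8 of the 26 were lower (30.8%, background 15.3%) and 2 higher (7.69%, background 15.5%), at a median of −0.11. There CBX5 stood at 0.05 (adjusted p = 0.547), TRIM28 at 0.09 (0.261), SETDB1 at −0.25 (0.0529) and CHD4 at −0.20 (0.0647, edgeR), and CHD3 kept its call at −0.51 (0.00185). TRIM28 was also lost without any 1 of 4 libraries: adjusted p was 0.116 without DMSO replicate 1, 0.0933 without DMSO replicate 2, 0.0859 without SsA replicate 2 and 0.0851 without SsA replicate 3.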

How the data were processed

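Per the labels' protocols, poly(A) RNA of 6 libraries was made into dUTP strand-marked libraries; cutadapt 1.9, HISAT2 2.0.4 and StringTie 1.3.4d on GRCh38 are named in the submitters' processing notes. Not given in the sources used here are the counting step, its strand setting and the release of the annotation. In the deposited table there are, per the file headers, a count and an FPKM per gene and library. The counts were not normalized by the authors, and the authors scaled FPKM by length and depth. Tested members had 26 to 8634 counts in a library, with a median of 690.5, and those of few counts are measured less exactly.

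Genes whose FPKM reached 1 in 3 or more of 6 libraries were tested with edgeR 4.0.16 (R 4.3.3), TMM scaling, quasi-likelihood and Benjamini-Hochberg adjustment, two-sided. The biological coefficient of variation was 15.3%. CPM is relative to the TMM-scaled library. Alternatives used DESeq2 1.42.0, limma 3.58.1 on log2(FPKM + 1) and log2(FPKM + 0.1), other filters, a replicate term, a mitochondrial term, a length correction and left-out libraries. The fit was tested on simulated data. Fingers and the KRAB pattern were sought in coding sequences of GENCODE 29 in place of RefSeq proteins; the KRAB pattern was widened once, after it missed known genes. Named members were the 8 largest falls and rises that passed without overlap, the 4 of highest FPKM and 2 on each side of the threshold; 4 partners of smallest p, TRIM28 and SETDB1; and 3 falls and 3 rises of other ZNF genes. The members and lists were chosen with earlier results of these data known.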

Additional observations from a re-analysis of the deposited data

How the results depend on the processing

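Between 31 and 54 of the 87 tested members were called lower in every setting that kept all 87, and the median stayed below 0 there. Single libraries left out in turn gave 1 to 5 members higher, 36 to 47 lower and medians from −0.51 to −0.42. For all tested genes the range was 2005 to 3153 higher and 2594 to 3249 lower. For other ZNF genes it was 3 to 9 higher, 67 to 89 lower and −0.44 to −0.40. For the 26 partners it was 1 to 5 higher and 13 to 15 lower, for C2H2 genes with other symbols 2 to 5 lower, and for other chromosome 19 genes 167 to 222 higher and 86 to 127 lower. Members with the KRAB pattern ranged from 29 to 38 lower, and those without from 1 to 5 higher and 7 to 9 lower. The call of ZNF205 was lost on leaving out any 1 of 5 libraries.

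The length correction gave 1770 genes higher and 1747 lower, a members' median of −0.40, 53 other ZNF genes lower (median −0.30), 8 partners and 2 other C2H2 genes lower, 88 other chromosome 19 genes higher, and 1 member higher with and 1 without the KRAB pattern. It took CBX5 from −0.69 to 0.048. By limma on log2(FPKM + 1), 923 genes were higher and 3701 lower; 1 member (without the KRAB pattern), 1 other ZNF gene, 0 partners (3 by edgeR) and 103 other chromosome 19 genes were higher, against 50, 102, 15 and 146 lower. The members' median was −0.36 and that of all genes −0.11. With a pseudocount of 0.1 there were 835 genes higher and 3679 lower, 1, 1, 0 and 95 higher against 50, 107, 15 and 146 lower, with medians of −0.59 for members and −0.57 for other ZNF genes. A mean FPKM of at least 5 left 7 members, with 2 lower (1 with the KRAB pattern, 1 without) and a median of 0.063; it gave 1666 genes higher and 1762 lower, 2 and 17 other ZNF genes, 0 partners higher, 0 other C2H2 genes and 64 other chromosome 19 genes lower. That filter tests fewer genes. Without an FPKM filter the medians were −0.44 (203 members) and −0.38 (other ZNF), and 52 of 165 KRAB members were lower. Of the 203 members there, 60 were lower and 3 higher, beside 3291 lower and 3214 higher of all 23239 genes. DESeq2's test called 5 members higher, all without the KRAB pattern. Both without the 2 libraries of high mitochondrial share and with that share as a term, 5 partners and 5 members were higher. In both settings the 5 members were all without the KRAB pattern. The term also gave 13 other ZNF genes higher. Over all tested genes 3801 were higher without the 2 libraries and 4182 with the term. Relative to the median of all genes, the members' median was −0.49. At a mean FPKM of at least 1 it was −0.38, and an FPKM of at least 1 in all 6 libraries kept 54 members. The cause of these shifts was not tested.

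Same-numbered libraries correlated at −0.34, 0.29 and −0.35 in their deviations from the group means. DMSO replicate 3 and SsA replicate 1, the libraries of high mitochondrial share, correlated at 0.55. The labels do not say whether equal numbers mark pairs. These values cannot settle it, because deviations from a mean of 3 libraries are tied to one another. With the replicate block 1 member (without the KRAB pattern), 3 other ZNF genes and 0 partners were higher, 3 other C2H2 genes were lower, and 38 members were lower. Over the named genes, 381 of 433 values stayed on their side of the threshold, 47 lost a call and 5 gained one. The sign turned in 14, of which 13 were of ZNF358 (8), ZNF580 (4) and ZNF653 (1), called in neither fit, and 1 was that of CBX5.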
